A study of Homo sapiens with 2 samples.

Results

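Enzymes that make serine, asparagine, glycine, one-carbon units and cysteine were followed in Hep3B cells, an established human hepatoma cell line. The set was chosen by symbol, as ASNS, PHGDH, PSAT1, PSPH, SHMT2, MTHFD2, ALDH1L2, PCK2, CTH and CBS, the biosynthetic side of the amino acid stress response. All 10 symbols were present among the 43424 of the count tables, and 7 of the 10 had at least 30 counts over both libraries. The study holds 2 libraries, 1 of cells given an extract of the plant Glehnia littoralis (GLE) and 1 of cells given the solvent dimethyl sulfoxide (DMSO). Both come from wild-type Hep3B cells grown in medium with 10% serum, per the labels. Exposures of up to 500 µg/mL over 24 h appear in the labels for a cell viability measurement. How long, and at what dose, the cells for sequencing were exposed is not stated there. With 1 library per group there is no replicate check, no test between conditions was made, and each difference below describes these libraries.

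ATF4 is a transcription factor whose protein is made when the initiation factor eIF2 is phosphorylated, as happens when amino acids run short or unfolded proteins build up. It binds composite C/EBP-ATF elements and is known to switch on amino acid transporters, aminoacyl-tRNA synthetases and the enzymes described here. Serine is made from a glycolytic intermediate by PHGDH, PSAT1 and PSPH in turn. SHMT2, MTHFD2 and ALDH1L2 then pass the serine carbon into folate in the mitochondrion, ASNS makes asparagine, PCK2 feeds phosphoenolpyruvate toward glycolytic intermediates, and CBS and CTH carry serine and homocysteine to cysteine. In hepatocytes the same pathways supply methyl groups and glutathione.

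Promoter windows from RefSeq (GRCh38.p14, 250 bases before to 50 bases after a start) were matched for 7 of the 10 genes, in 10 windows, and 3 of them are printed. ASNS is shown because its window was the sole one of the 10 with any of the motifs searched, CTH because its scaled ratio was farthest from 1 among the 7 well-counted genes, and PSAT1 because it had the most counts. The single capital near the right end marks the first transcribed base in each, and the run of 8 capitals in ASNS marks the motif. ASNS lies on chr7:97872359-97872658 (minus strand), CTH on chr1:70411018-70411317 (plus strand) and PSAT1 on chr9:78296875-78297174 (plus strand).
ASNS: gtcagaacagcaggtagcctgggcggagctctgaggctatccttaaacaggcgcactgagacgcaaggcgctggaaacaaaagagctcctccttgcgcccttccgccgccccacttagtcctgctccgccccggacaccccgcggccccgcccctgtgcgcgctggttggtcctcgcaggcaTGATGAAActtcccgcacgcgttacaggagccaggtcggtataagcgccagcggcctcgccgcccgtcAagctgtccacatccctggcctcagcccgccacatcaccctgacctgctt
CTH: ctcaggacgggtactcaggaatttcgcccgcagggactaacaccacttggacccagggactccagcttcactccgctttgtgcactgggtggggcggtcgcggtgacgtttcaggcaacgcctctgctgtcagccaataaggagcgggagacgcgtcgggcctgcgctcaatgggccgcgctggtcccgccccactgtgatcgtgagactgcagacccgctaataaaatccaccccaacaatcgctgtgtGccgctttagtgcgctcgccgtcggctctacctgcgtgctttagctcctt
PSAT1: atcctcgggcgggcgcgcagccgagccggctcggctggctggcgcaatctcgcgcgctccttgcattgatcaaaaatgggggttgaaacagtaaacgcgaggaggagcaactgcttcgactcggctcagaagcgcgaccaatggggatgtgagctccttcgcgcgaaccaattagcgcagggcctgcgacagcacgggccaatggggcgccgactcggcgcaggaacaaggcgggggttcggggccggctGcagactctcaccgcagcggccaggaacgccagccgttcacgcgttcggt

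The motifs were TGATGNAA, the core shared by C/EBP-ATF response elements, TGACGTCA, the cyclic AMP response element that ATF factors also bind, and CACGTG, the E-box of MYC. They were searched on both strands, and none of them overlapped another in these windows. TGATGNAA stood in ASNS as TGATGAAA, from base -68 to base -61 relative to the start, where the nutrient-sensing element of ASNS is known to lie. That motif was present in 3.62% of all 35116 RefSeq windows, TGACGTCA in 1.85% and CACGTG in 7.26%. The second ASNS window, the 3 CBS windows and the windows of PHGDH, PSAT1, MTHFD2, PCK2 and CTH did not hold these letters. A match is a description of the sequence, and a window without one says nothing of the factor elsewhere in the gene.

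The GLE library held 3636351 counts and the DMSO library 5618328. Levels are given as CPM, a gene's counts per 1000000 counts of its library, after scaling by the trimmed mean of M-values (TMM), with exact Poisson 95% intervals, and ratios are GLE over DMSO with exact 95% counting intervals. The kit reads the 3′ end of each transcript, so counts were not divided by gene length. A floor of 3 counts was 0.848 CPM in the GLE library and 0.519 CPM in the DMSO library. All 8 hepatocyte markers examined were present, with at least 145 counts in the GLE library and 529 in the DMSO library, and they summed to 5043 CPM with GLE and 8039 CPM with DMSO. Of 10 markers of blood, endothelial and fibroblast cells, 3 (CD3E, VWF and CDH5) were at 0 in both libraries. The 10 summed to 453 CPM in the GLE library and 484 CPM in the DMSO library, and without LYZ the other 9 summed to 17.5 CPM with GLE and 14.5 CPM with DMSO. Single markers differed in opposite directions, as COL1A1 had 29 counts with GLE and 4 with DMSO, DCN had 9 with GLE and 0 with DMSO, and PECAM1 had 1 with GLE and 36 with DMSO. Their part in the results was not tested.

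CTH, the serine and one-carbon enzymes and PCK2 took 3 courses. CTH counts were 6.59-fold higher in the GLE library, the serine synthesis genes and PCK2 were 1.25-fold to 1.57-fold higher, and SHMT2 and MTHFD2 lay close to 1. ASNS and CBS had almost no counts in either library, and ALDH1L2 had counts in the GLE library alone. Among the 7 genes with at least 30 counts, a ratio of 2 or more was found for 1 and a ratio of 0.5 or less for 0. Over all 11068 genes with that many counts, the shares past these limits were 9.54% on the higher and 10.5% on the lower side. With TMM scaling, the counting interval lay above 1 for 5 of the 7 and below 1 for 0, against 27.7% and 30.1% of all genes. Whether an interval leaves out 1 depends also on a gene's counts, which were not matched between these genes and all genes. The median log2 ratio of the 7 was 0.45, and that of all genes was -0.04. A measured level in such bulk RNA cannot separate fewer expressing cells from less RNA per cell.

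**Figure D1:**
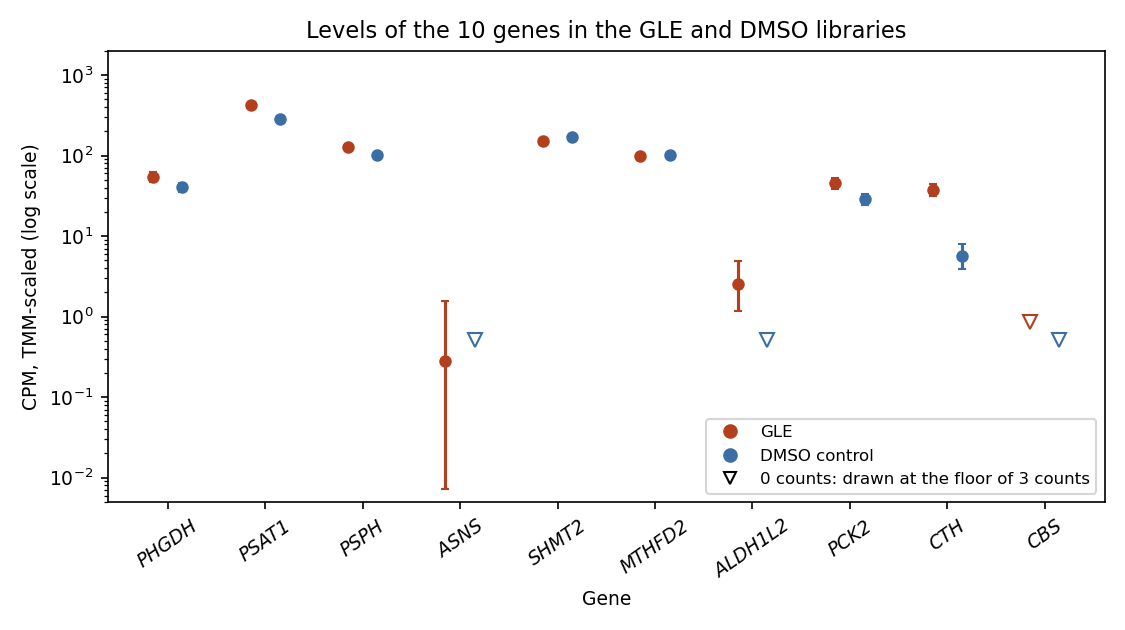
Level of each of the 10 genes (x axis) in TMM-scaled CPM (y axis, log scale), with GLE points left of DMSO control points. Bars are exact Poisson 95% intervals, and open triangles mark genes with 0 counts, drawn at the floor of 3 counts. CTH stands at 37.6 CPM in the GLE library and 5.71 CPM in the DMSO library. For each other well-counted gene the GLE and DMSO points lie closer together than those of CTH.

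PHGDH, the dehydrogenase that takes 3-phosphoglycerate out of glycolysis as the first step of serine synthesis, had 194 counts in the GLE library and 232 in the DMSO library. These were 54.9 CPM (47.4 to 63.2) and 40.2 CPM (35.2 to 45.7), a ratio of 1.37 (1.12 to 1.66). The gene lies on chromosome 1 (119711934 to 119744215, GRCh38). The 2 level intervals did not overlap, with the GLE library higher.

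PSAT1, the aminotransferase of the second step on chromosome 9 (78297125 to 78330093), had the most counts of the set in both libraries, 1479 in the GLE library and 1619 in the DMSO library. Its level was 418 CPM (397 to 440) with GLE and 280.2 CPM (267 to 294) with DMSO, a ratio of 1.49 (1.39 to 1.60). PSPH, the phosphatase that releases serine, is encoded on chromosome 7 (56011064 to 56051444). It had 448 counts (127 CPM) in the GLE library and 584 counts (101 CPM) in the DMSO library, a ratio of 1.25 (1.11 to 1.42). All 3 steps of the pathway were higher in the GLE library, with ratio intervals that overlap one another. PSAT1 made up 88.4% (86.8 to 89.9) of the PSAT1 and PHGDH counts with GLE and 87.5% (85.9 to 88.9) with DMSO, so the balance between these steps differed by less than counting error.

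ASNS, the synthetase that makes asparagine from aspartate and glutamine, lies on chromosome 7 (97851677 to 97928441). It had 1 count in the GLE library and 0 in the DMSO library, both under the floor, so no ratio was formed. In RefSeq, 99.4% of the ASNS span is covered on the same strand by the read-through gene CZ1P-ASNS, which had 3 counts in the GLE library and 0 in the DMSO library. The pseudogene ASNSP1 had 8 counts with GLE and 11 with DMSO. Among 306 protein-coding genes covered over at least 80% of their span by a read-through gene that names them, 63.4% (57.7 to 68.8, Clopper-Pearson) had under 10 counts over both libraries. Among the other 19432 protein-coding genes it was 41.1% (40.4 to 41.8). The covered genes and the others were not matched for expression. Whether reads of ASNS were left uncounted for this overlap was not tested, and its count here is not taken as a measure of its level.

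SHMT2, the mitochondrial hydroxymethyltransferase that turns serine into glycine and a folate-bound carbon, lies on chromosome 12 (57229711 to 57234935). It had 539 counts in the GLE library and 971 in the DMSO library, or 152 CPM (140 to 166) and 168 CPM (158 to 179). The ratio was 0.907 (0.815 to 1.01), with level intervals that overlap. MTHFD2, the mitochondrial dehydrogenase and cyclohydrolase that oxidises that carbon, lies on chromosome 2 (74198615 to 74217565). It had 346 counts (97.9 CPM) with GLE and 594 counts (103 CPM) with DMSO, a ratio of 0.952 (0.831 to 1.09). With TMM scaling, neither gene showed a difference detectable at this depth. For SHMT2 this depended on the scaling, as total counts gave a ratio of 0.858 and moved its whole interval below 1. For counting error alone, the TMM-scaled intervals reach a level 1.23-fold lower for SHMT2, and 1.20-fold lower or 1.09-fold higher for MTHFD2. The ratio intervals of PHGDH, PSAT1, PSPH and PCK2 all lay above those of SHMT2 and MTHFD2, although the distance was small for PSPH and PHGDH. The RefSeq span of MTHFD2 shares 1324 bases with SLC4A5, on the other strand, which had 0 counts in both libraries.

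ALDH1L2, the mitochondrial enzyme that oxidises formyl-tetrahydrofolate, lies on chromosome 12 (105019790 to 105084458). It had 9 counts in the GLE library, 2.55 CPM (1.16 to 4.83), and 0 counts in the DMSO library. Set against a floor of 3 counts in the DMSO library, it was 4.90-fold higher with GLE. The lower end of its counting interval, which also takes in the error of the GLE count, was 3.23. With 9 counts in all it fell short of the minimum of 30 and entered none of the counts or medians above.

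PCK2, the mitochondrial phosphoenolpyruvate carboxykinase, lies on chromosome 14 (24094171 to 24104125). It had 159 counts in the GLE library and 166 in the DMSO library, or 45.0 CPM (38.2 to 52.5) and 28.7 CPM (24.5 to 33.4). The ratio was 1.57 (1.25 to 1.96), the second highest of the 7. NRL covers the whole PCK2 span on the other strand and had 7 counts with GLE and 4 with DMSO. PCK1, the cytosolic carboxykinase of gluconeogenesis, had 14 counts with GLE and 0 with DMSO, which is 7.63-fold higher when set against the floor of 3 counts. The lower end of its counting interval was 5.42, and it too fell short of 30 counts.

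CTH, the cystathionine gamma-lyase that releases cysteine and can form hydrogen sulfide, lies on chromosome 1 (70411268 to 70439851). It had 133 counts in the GLE library and 33 in the DMSO library. Its level was 37.6 CPM (31.5 to 44.6) with GLE and 5.71 CPM (3.93 to 8.02) with DMSO. The ratio of 6.59 (4.47 to 9.96) stood at percentile 99.2 of the 11068 genes, and its whole interval lay beyond 2-fold, as for 3.82% of all genes. The other 6 genes stood between percentile 43.8, for SHMT2, and percentile 82.8, for PCK2. CBS, the synthase that makes cystathionine on chromosome 21 (43053191 to 43076873), had 0 counts in both libraries and so lay under the floor in each. GRCh38 holds another copy of CBS on the same chromosome, LOC102724560 (CBSL), also at 0 in both. Coding transcripts of CBS and CBSL in GENCODE release 29 are identical over up to 1646 bases at the 3′ end, and the count of CBS is uncertain.

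PSAT1 and SHMT2 ranked first and second by counts in both libraries, with intervals apart from each other and from the genes after them. PSPH followed by MTHFD2 came next in the GLE library, with intervals apart, while the intervals of MTHFD2 and PSPH overlapped in the DMSO library. PHGDH, PCK2 and CTH followed in both. In the GLE library the intervals of PHGDH and PCK2 overlapped, as did those of PCK2 and CTH, whereas in the DMSO library all 3 were apart. The 10 genes together took 0.0910% (0.0879 to 0.0941) of GLE counts and 0.0747% (0.0725 to 0.0770) of DMSO counts.

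**Figure D2:**
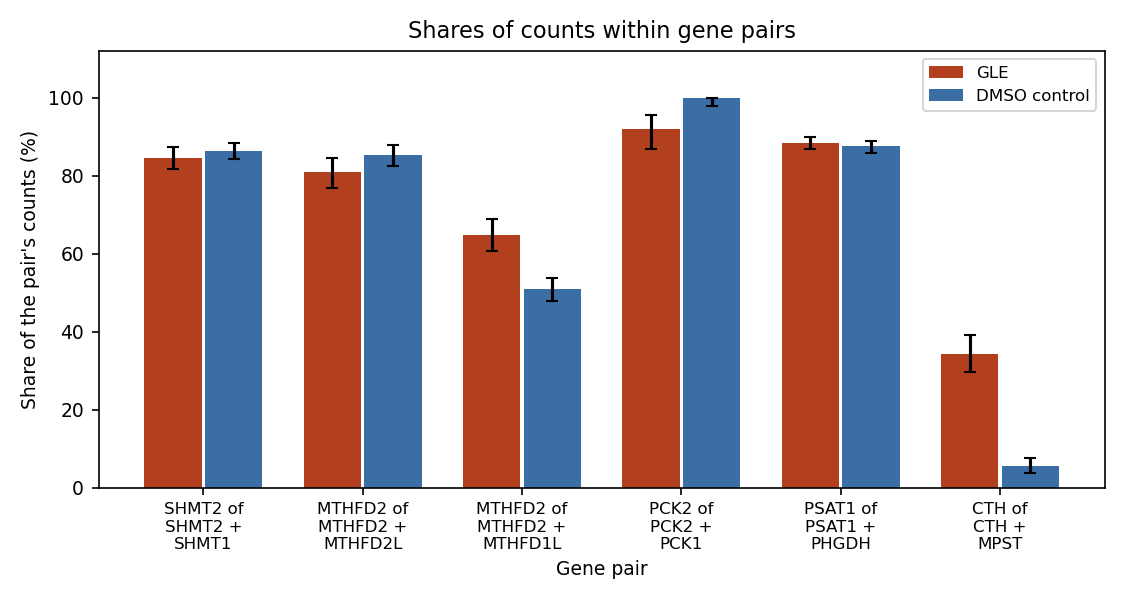
Share of the first gene in the summed counts of each pair (y axis, percent) for 6 gene pairs (x axis), with GLE bars left of DMSO control bars. Error bars are Clopper-Pearson 95% intervals. The bars are close for SHMT2 against SHMT1 and apart for MTHFD2 against MTHFD1L (64.8% with GLE, 50.9% with DMSO) and CTH against MPST (34.3% with GLE, 5.54% with DMSO).

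Shares within pairs of related genes do not depend on library scaling. SHMT2 made up 84.6% (81.6 to 87.3) of SHMT2 and SHMT1 counts in the GLE library and 86.3% (84.2 to 88.3) in the DMSO library. SHMT1, the cytosolic isozyme, had a ratio of 1.04 (0.799 to 1.35). MTHFD2 made up 80.8% (76.8 to 84.5) of its counts with MTHFD2L, a related mitochondrial enzyme, in the GLE library and 85.3% (82.5 to 87.9) in the DMSO library. In both pairs the intervals overlap. PCK2 made up 91.9% (86.8 to 95.5) of carboxykinase counts with GLE and 100% (97.8 to 100) with DMSO, with intervals apart. The next 2 pairs were chosen after their values were seen. Against MTHFD1L, the mitochondrial synthetase that releases formate after the MTHFD2 step, MTHFD2 made up 64.8% (60.6 to 68.8) with GLE and 50.9% (47.9 to 53.8) with DMSO. CTH made up 34.3% (29.6 to 39.2) of the counts with MPST, another enzyme that can form hydrogen sulfide, in the GLE library and 5.54% (3.84 to 7.69) in the DMSO library.

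Beyond the 10 enzymes, genes of folate metabolism were mostly lower with GLE. Among 14 folate genes with at least 30 counts, 1 had a ratio of 2 or more and 3 had a ratio of 0.5 or less, with 1 interval above 1 and 10 below, and their median log2 ratio was -0.57. Over all genes these shares were 9.54%, 10.5%, 27.7% and 30.1%, in that order, and the median was -0.04, the background for this and the following lists. MTHFD1L was 1.87-fold lower (1.58 to 2.21). MTFMT, which formylates the mitochondrial initiator tRNA, was 2.27-fold higher (1.45 to 3.59). MTHFD1, the cytosolic enzyme of the same steps as MTHFD2, had a ratio of 1.03 (0.855 to 1.25) and MTHFD2L one of 1.31 (0.970 to 1.77). ALDH1L1, the cytosolic counterpart of ALDH1L2, had 0 counts in both libraries. SHMT2 and MTHFD2 stood at percentiles 43.8 and 47.9 of all genes, above most of this folate list and below the 3 serine synthesis genes.

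Genes of methionine and sulfur metabolism were mostly lower with GLE. Among 16 with at least 30 counts, 0 were 2-fold or more higher and 3 were 2-fold or more lower, with 2 intervals above 1 and 10 below, and a median log2 ratio of -0.49. MAT1A, the methionine adenosyltransferase of adult liver, had 11 counts with GLE and 96 with DMSO and was 5.34-fold lower (2.86 to 11.1). MAT2A, the adenosyltransferase of other tissues and of tumours, was 3.25-fold lower (2.65 to 4.00). MTR, the methionine synthase that draws on methyl-tetrahydrofolate, was 2.37-fold lower (1.94 to 2.91), and BHMT2, a methyltransferase that also makes methionine, 1.69-fold lower (1.43 to 2.003). The 2 intervals above 1 were those of MAT2B, at 1.85 (1.29 to 2.65), and CSAD, at 1.83 (1.23 to 2.72).

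**Figure D3:**
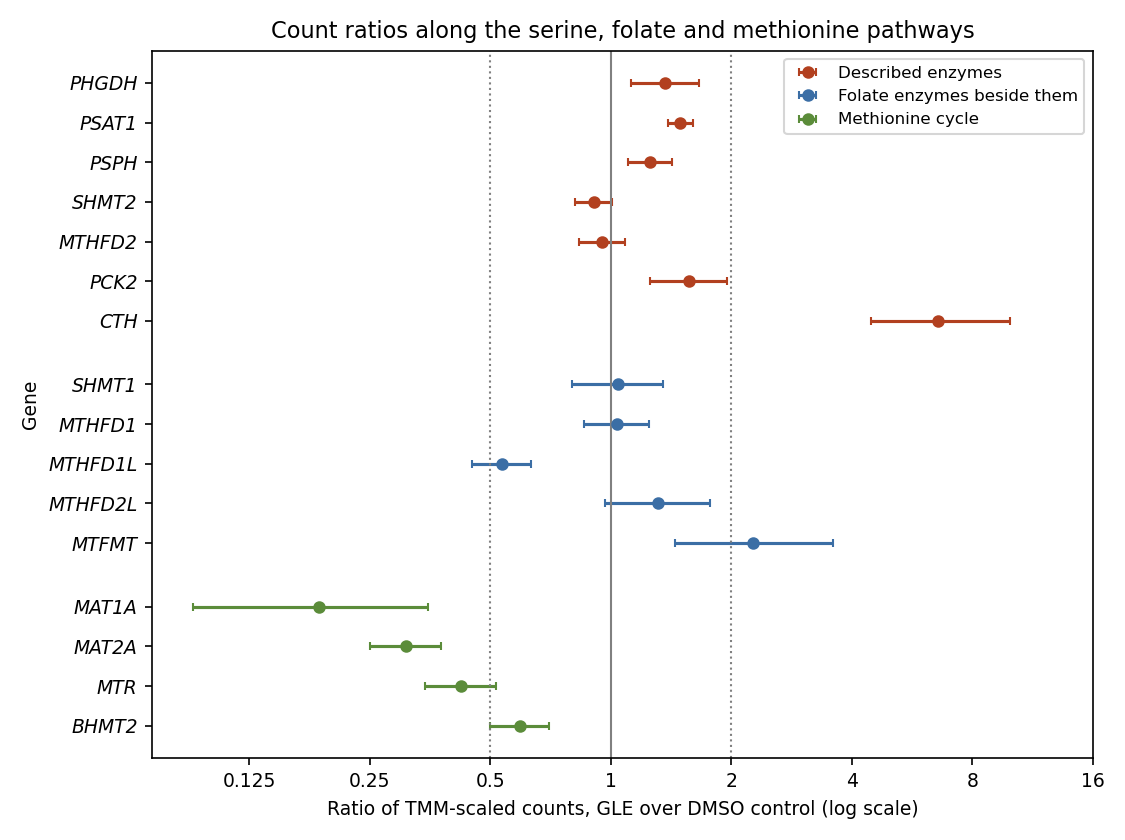
Ratio of TMM-scaled counts, GLE over DMSO control (x axis, log scale), for the 7 described enzymes with at least 30 counts, folate enzymes beside them and methionine cycle genes (y axis). Bars are exact 95% counting intervals, and dotted lines mark 2-fold differences. CTH lies far to the right at 6.59, while MAT1A, MAT2A and MTR lie left of the lower dotted line.

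Genes that use or carry glycine and serine fell on either side of 1, with 0 of 15 beyond 2-fold in either direction, 3 intervals above 1, 3 below and a median log2 ratio of -0.11. SPTLC1 and SPTLC2, subunits of the palmitoyltransferase that spends serine on sphingolipids, were on opposite sides, at 0.719 (0.611 to 0.843) and 1.58 (1.18 to 2.13). Genes of aspartate, glutamate and proline had 1 of 14 beyond 2-fold on each side, with 2 intervals above 1, 6 below and a median of -0.04. GOT1, the cytosolic transaminase that makes aspartate, a substrate of ASNS, was 2.45-fold higher (2.18 to 2.76). GLUL, which makes the other ASNS substrate glutamine, was 2.17-fold lower (1.88 to 2.51). ASS1 and ASL, which spend aspartate on arginine, were 1.77-fold (1.30 to 2.44) and 1.93-fold (1.53 to 2.46) lower. Purine synthesis, which consumes folate-bound formyl groups, had 0 of 12 beyond 2-fold either way, 1 interval above 1, 7 below and a median of -0.31. ATIC, which takes up such a formyl group, was 1.30-fold lower (1.19 to 1.41), and PPAT, the first enzyme of the route, 1.35-fold lower (1.16 to 1.57). Gluconeogenesis genes, beside PCK2, had 0 of 5 beyond 2-fold either way, 1 interval above 1, 2 below and a median of -0.02. SLC37A4, the carrier that brings glucose 6-phosphate into the endoplasmic reticulum, was 1.80-fold lower (1.32 to 2.50).

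Several transcription factors and feedback genes of the same stress response were higher with GLE by more than the serine genes. Among 15 with at least 30 counts, 8 had a ratio of 2 or more and 0 had one of 0.5 or less, with 9 intervals above 1, 2 below and a median log2 ratio of 1.13. ATF4 itself had 3368 counts with GLE and 2518 with DMSO, a ratio of 2.19 (2.08 to 2.30). That interval lay above those of PHGDH, PSAT1, PSPH, SHMT2, MTHFD2 and PCK2 and below that of CTH. DDIT3, the stress factor CHOP, at 9.17 (7.42 to 11.4), and ATF3, at 12.0 (10.4 to 13.8), had larger ratios than any of the 7, although the interval of DDIT3 overlaps that of CTH. TRIB3, a pseudokinase that restrains ATF4, had a ratio of 2.25 (1.93 to 2.64). CEBPB and CEBPG, partners of ATF4 on composite elements, had ratios of 0.799 (0.656 to 0.970) and 0.923 (0.767 to 1.11). CHAC1, which degrades glutathione, the peptide that cysteine from CTH helps to build, was 5.72-fold higher (5.05 to 6.50).

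**Figure D4:**
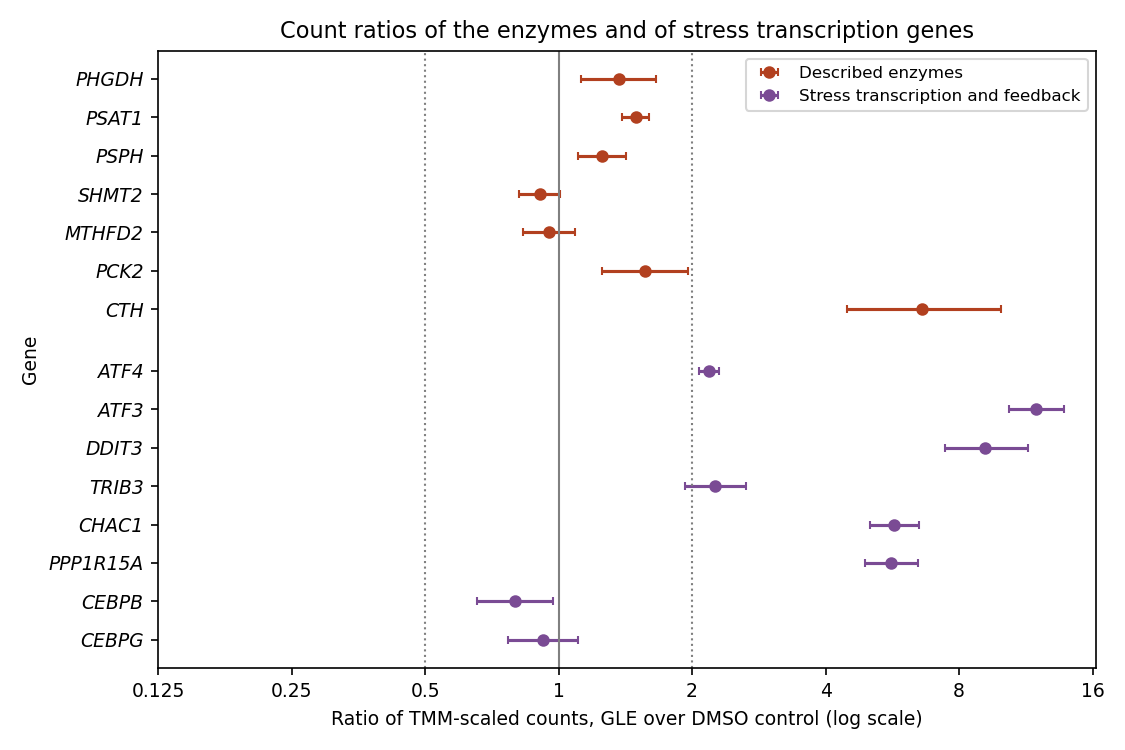
Ratio of TMM-scaled counts, GLE over DMSO control (x axis, log scale), for the 7 described enzymes and for ATF4, ATF3, DDIT3, TRIB3, CHAC1, PPP1R15A, CEBPB and CEBPG (y axis). Bars are exact 95% counting intervals, and dotted lines mark 2-fold differences. The point for CTH (6.59) lies among the stress genes, while PSAT1 (1.49) and PCK2 (1.57) lie left of ATF4 (2.19).

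The other ATF4-linked groups differed from one another. Of 12 cytosolic aminoacyl-tRNA synthetases, 0 were beyond 2-fold either way, with 9 intervals above 1 and 2 below, and the median log2 ratio was 0.35. GARS1, which charges the tRNA of glycine, had the largest value, 1.88 (1.75 to 2.02), followed by MARS1 for methionine at 1.69 (1.49 to 1.91). Amino acid transporters had 1 of 9 beyond 2-fold on the higher side, 0 on the lower, 4 intervals above 1, 4 below and a median of -0.11. SLC7A11, which imports cystine and so supplies cysteine by a path other than CTH, was 3.15-fold higher (2.76 to 3.60). SLC3A2, its partner chain, was 1.61-fold higher (1.47 to 1.77). SLC38A2, a sodium-coupled carrier of neutral amino acids, had a ratio of 1.33 (1.22 to 1.45), while SLC1A5, which carries glutamine and serine, was 1.99-fold lower (1.66 to 2.39). The eIF2 kinases, eIF2 and its exchange factor had 0 of 11 beyond 2-fold, 3 intervals above 1, 3 below and a median of -0.01. EIF2AK1, the heme-regulated kinase, was 1.48-fold lower (1.38 to 1.59), and GCN1, which helps the kinase GCN2 sense uncharged tRNA, 1.76-fold lower (1.56 to 1.99). EIF2S1, the phosphorylated subunit, was 1.5-fold higher (1.30 to 1.73) and EIF2B1, of the exchange factor, 1.71-fold higher (1.36 to 2.16). The other kinases, EIF2AK3, EIF2AK2 and EIF2AK4, had ratios of 1.85 (1.17 to 2.94), 0.798 (0.641 to 0.990) and 0.878 (0.650 to 1.18).

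**Figure D5:**
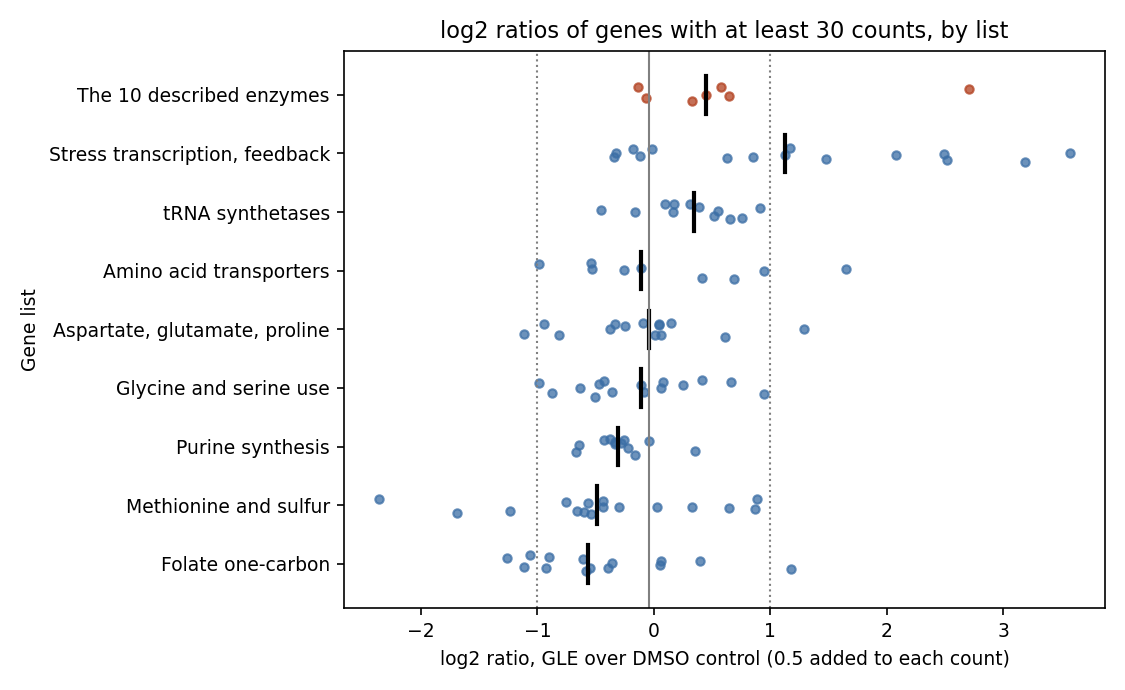
log2 ratio, GLE over DMSO control with 0.5 added to each count (x axis), of genes with at least 30 counts in 9 lists (y axis). Points are genes, short black lines are list medians, the grey line is the median of all genes (-0.04) and dotted lines mark 2-fold differences. The median of the described enzymes (0.45) lies near that of the tRNA synthetases (0.35), below that of the stress transcription genes (1.13) and above those of the methionine (-0.49) and folate (-0.57) lists.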

How the data were processed

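Messenger RNA was measured in 1 library of GLE-treated and 1 of DMSO-treated Hep3B cells, each from 500 ng of total RNA, with a Lexogen QuantSeq kit, per the labels. The authors deposited 1 table per library of unnormalized counts, whole numbers of reads for each gene symbol. The submitters' processing notes name fastp, STAR, HTSeq and GRCh38. Which versions, annotation and strand setting were used is not stated there, so reads of overlapping, antisense or near-identical genes cannot be told apart. Groups were taken from the sample titles.

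Counts were scaled with TMM in edgeR 4.0.16 under R 4.3.3, with factors of 0.972 for GLE and 1.03 for DMSO. Ratios came from scaled counts, and their intervals from exact Clopper-Pearson 95% limits on the part of a gene's counts that fell in the GLE library. Intervals and floors cover counting error only, and without molecular identifiers reads do not stand for separate molecules. Genes needed 30 counts over both libraries, 0.5 was added to counts before log2, and a gene at 0 in 1 library was set against 3 counts. The computation was tested on simulated data. Positions came from RefSeq, which matched 42739 of 43424 symbols and all 10 genes.

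The 10 genes, 10 lists of related genes and 2 marker lists were chosen with earlier results of these data known. Named were the 10 genes, their isozymes, ATF4 regulators and up to 4 genes per list by the interval bound nearest to 1, of which not all are reported here. EIF2AK2, EIF2AK3, EIF2AK4, MAT2B and CSAD were named after their values were seen. The planned comparison of isozyme protein sequences was not made. Settings tried were 5 other scalings (including DESeq2 1.42.0 size factors), minimums of 10 and 100 counts or none, 2 added to counts, pseudogene counts added, whole intervals and, chosen after seeing the data, removal of a GC trend (lowess span 0.3, GENCODE release 29 transcripts). Intervals, the GC trend and figures used SciPy 1.17.1, statsmodels 0.14.6 and matplotlib 3.10.9 in Python 3.11.15.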

Additional observations from a re-analysis of the deposited data

How the results depend on the processing

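Across the other scalings, 2 added to counts, pseudogene counts added and the GC trend removed, all 56 recomputed ratios of the 7 genes stayed within their counting intervals and on the same side of 1. This check covered the ratios and not the intervals, which move with the scaling. The SHMT2 interval moves below 1 with total counts (ratio 0.858), total counts without the mitochondrial genome (0.884) and upper-quartile factors (0.891). CTH ranged from 6.23 to 6.72, PCK2 from 1.48 to 1.80, PSAT1 from 1.41 to 1.52, PHGDH from 1.29 to 1.51, PSPH from 1.19 to 1.30, SHMT2 from 0.858 to 0.980 and MTHFD2 from 0.900 to 0.971. The median log2 ratio ranged from 0.37, by total counts, to 0.52, with the GC trend removed. With no minimum count, 2 genes were at least 2-fold higher, since ALDH1L2 joined CTH; under each other setting the number was 1, and 0 were at least 2-fold lower under every setting. Leaving out a replicate and tests between conditions need more than 1 library per group. No paired analysis was possible because each group holds 1 library. The 9 counts of ALDH1L2 limit its precision. For ASNS and CBS, with 1 and 0 counts, whether depth, overlapping genes or near-identical copies set the counts was not tested.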
